A study of Mus musculus with 6 samples.

Results

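Mature neutrophils of tumor-free adjacent liver were 618 of the 2345 CD45+ cells of this tissue, in a series of 23008 cells. They were chosen by the deposited expression scores, in which every gene is centered near 0 over the cells of the tissue. The mean score of Csf3r, Cxcr2, G0s2 and Hdc had to lie above 0.4, and the mean score of Fcnb, Ltf and Cebpe, genes of immature neutrophils, below 0.5. The Ctrl library held 599 of the members and the Tim3-KD library 19. Values of the genes that chose the cells are therefore given as a description, and so is every comparison of the members with the other cells of their libraries.

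Balb/c mice had received 4T07 cells, a mouse mammary tumor line, by intracardiac injection. The tumor cells carried a control vector (Ctrl) or an shRNA that knocks down Tim3 (Tim3-KD), so the neutrophils themselves carried no knockdown. CD45+ cells were sorted from pieces of adjacent liver at day 3, of liver micrometastasis at day 3 and of liver macrometastasis at day 12, and profiled by 10x single-cell RNA-seq. Each of the 6 libraries was a pool of 2 mice and the only library of its group, so no difference between groups was tested and the intervals given here cover counting error only. The age and sex of the mice are not given in the labels. Havcr2, the gene of TIM3, was at 1.65 per 1000000 captured RNA molecules in the Ctrl members and at 0 in the 19 Tim3-KD members, which does not check the knockdown, since the targeted tumor cells were not sorted.

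Neutrophils mature in the bone marrow, where promyelocytes fill azurophil granules with Elane, Mpo and Prtn3, and later stages make secondary and tertiary granules with Ltf, Camp and gelatinase. Mature cells carry the G-CSF receptor and the chemokine receptor CXCR2, leave for the blood, live for a short time and pass through the liver sinusoids in large numbers. They sense microbes and tissue damage through lectin and Toll-like receptors, and they answer with IL-1beta, chemokines and proteases.

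The scores were turned back into UMIs (unique molecular identifiers, each marking 1 captured RNA molecule), and a level in CPM is a gene's UMIs per 1000000 UMIs of all genes in the cells. A UMI marks 1 molecule whatever the length of the transcript. The Ctrl members held 5456222 UMIs and the Tim3-KD members 103521, so that 1 UMI stood for 0.183 CPM in the first group and for 9.66 CPM in the second. A count of 0 in the Tim3-KD members allowed a level of up to 28.98 CPM, taken as 3 UMIs. The median depth of a member was 5558 UMIs (Ctrl) or 5728 UMIs (Tim3-KD), against 14160 and 10589 in the other cells of the same libraries. The barcodes of 4 of the 599 Ctrl members also occurred in another library, and none of the 19 Tim3-KD members shared one.

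The promoters of 4 of the 6 genes that stood highest in the members against the other cells of the Ctrl library are shown here as those of the members' leading genes. The letters are RefSeq sequence of build GRCm38.p6, read 5′ to 3′ on the strand of the gene and ending at the base before the annotated start. Capitals mark a match to TTGCNNAA, the core of the C/EBP motif, or to GAGGAA, the core of the PU.1 motif, on either strand. The windows are chr14:103046762-103046976 on the plus strand for Acod1, chr5:7960222-7960456 on the plus strand for Steap4, chr2:129371140-129371389 on the minus strand for Il1b and chr1:74153744-74153988 on the plus strand for Cxcr2.
Acod1 promoter: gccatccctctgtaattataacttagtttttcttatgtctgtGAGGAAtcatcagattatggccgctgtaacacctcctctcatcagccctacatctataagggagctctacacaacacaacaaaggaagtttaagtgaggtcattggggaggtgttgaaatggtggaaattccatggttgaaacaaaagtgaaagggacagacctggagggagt
Steap4 promoter: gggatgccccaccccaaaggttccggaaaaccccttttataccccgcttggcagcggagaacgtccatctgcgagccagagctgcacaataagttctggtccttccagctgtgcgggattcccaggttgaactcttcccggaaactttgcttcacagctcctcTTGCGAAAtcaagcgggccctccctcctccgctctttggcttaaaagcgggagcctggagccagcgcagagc
Il1b promoter: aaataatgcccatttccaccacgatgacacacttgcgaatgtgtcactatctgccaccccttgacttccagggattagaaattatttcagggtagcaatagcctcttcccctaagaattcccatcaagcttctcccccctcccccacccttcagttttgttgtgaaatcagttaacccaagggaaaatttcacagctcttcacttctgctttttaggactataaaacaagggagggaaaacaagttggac
Cxcr2 promoter: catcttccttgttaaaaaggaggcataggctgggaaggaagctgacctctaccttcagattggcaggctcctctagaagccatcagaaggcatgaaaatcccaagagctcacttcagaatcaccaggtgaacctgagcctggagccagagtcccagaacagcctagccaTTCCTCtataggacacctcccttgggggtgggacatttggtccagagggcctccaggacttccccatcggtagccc

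The C/EBP letters occurred in 9.56% and the PU.1 letters in 23.2% of 32851 promoters read over 250 bases. The windows shown for Acod1, Steap4 and Cxcr2 are shorter than that, at 215, 235 and 245 bases. Steap4 held 1 C/EBP match and no PU.1 match, Acod1 and Cxcr2 each held 1 PU.1 match and no C/EBP match, and Il1b held neither. A match is a description of the letters and not a site of binding.

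**Figure D1:**
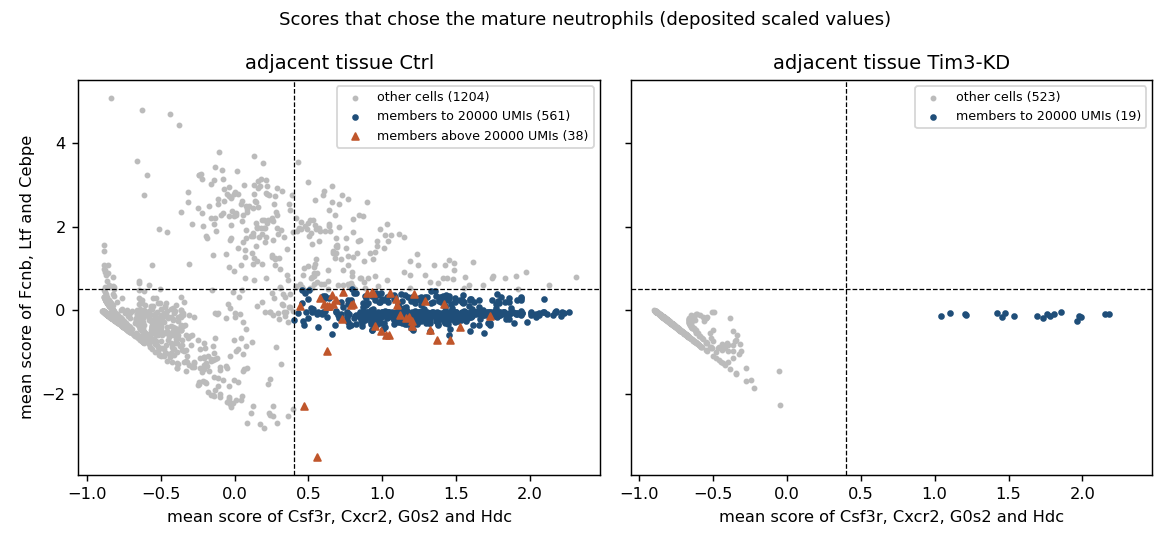
Each point is a cell of adjacent tissue Ctrl (left) or Tim3-KD (right), placed by its mean score over Csf3r, Cxcr2, G0s2 and Hdc (x axis) and over Fcnb, Ltf and Cebpe (y axis), in units of the deposited scaled scores, with dashed lines at the cut-offs 0.4 and 0.5. The 19 Tim3-KD members lie apart from the other cells of their library, while in Ctrl 146 cells passed the first cut-off and not the second; triangles are the 38 members above 20000 UMIs.

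In the Ctrl library cells lay on both sides of each cut-off without a gap. The lowest member had a mature gene mean of 0.404 and the nearest cell outside one of 0.394. In this library 12 members lay between 0.4 and 0.5 of this mean, and 16 cells lay between 0.3 and 0.4 outside it. For the precursor mean the highest member stood at 0.499 and the nearest cell outside at 0.511, with 16 members from 0.4 to 0.5 and 17 cells from 0.5 to 0.6. In Tim3-KD no cell lay in any of these ranges, and no cell passed the first cut-off without passing the second. The median mature gene mean was 1.30 in the Ctrl members, 1.73 in the Tim3-KD members and -0.57 in the other Ctrl cells.

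All 4 markers of the label were present in the members. Csf3r, the G-CSF receptor, had 1001 CPM in the Ctrl members (95% exact Poisson interval 974 to 1027) and 80.1 CPM in the other cells of the library. Cxcr2, the receptor for CXCL1 and CXCL2, had 630 CPM against 39.1, and G0s2, an inhibitor of lipolysis, 1376 CPM against 194.9. Steap4, a metalloreductase that the rule did not use, had 314.5 CPM against 9.58. After every cell was thinned to 1000 UMIs, Csf3r was found in 73.5% of the Ctrl members and in 1.36% of 295 B-like cells of the same library, whose median depth was 5390 UMIs, and Steap4 in 34.4% against 0.678%. In the 19 Tim3-KD members Csf3r had 2627 CPM (2324 to 2959), Cxcr2 1169 CPM (970 to 1397), G0s2 6955 CPM (6456 to 7482) and Steap4 289.8 CPM (195.5 to 413.7).

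A small number of deep cells passed the rule together with the mature ones. In the Ctrl library 38 of the 599 members had more than 20000 UMIs, and they held 30.7% of all UMIs of the members. They carried 92.8% of the members' UMIs of Ltf (lactoferrin, a secondary granule protein), 89.5% of Mpo (myeloperoxidase), 76.9% of Elane (neutrophil elastase) and 93.4% of Mki67 (the proliferation antigen Ki-67), but 3.12% of Il1b and 8.35% of Csf3r. The deepest cell, with 115227 UMIs, held 204 UMIs of Elane, 129 of Mpo and 54 of Mki67 and had a precursor mean of -3.51. The scores carry a term for depth: a cell without a single UMI of the precursor genes would score -0.10 at 5000 UMIs, -0.59 at 20000 and -3.20 at 100000. The Tim3-KD library had no member above 20000 UMIs, and the other 4 libraries had 38 to 111. Values without the deep cells are given beside the results that moved with them.

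Markers of other cell types were also counted in the members. In Ctrl, 85 of 599 members (14.2%) held 2 or more UMIs of the defining markers of T cells, B cells, basophils or Kupffer cells. For 77 of them these were T cell markers, of which Cd3d stood at 78.1 CPM in the members and 70.1 CPM in the other cells, while Cd3e and Cd3g lay at 0.18 and 0.50 CPM. The 10 Kupffer cell markers summed to 334 CPM in the Ctrl members and 483 CPM in the other cells, and 9 members held 2 or more of these UMIs. Among the 19 Tim3-KD members 8 held such markers, 4 of T cells and 4 of Kupffer cells. The Kupffer markers there summed to 1053 CPM and the B cell markers to 744 CPM, against 51.9 CPM for B cell markers in the Ctrl members. The part of these transcripts in the results was not tested.

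The Ctrl library gave mature neutrophils as 33.2% of its 1803 cells (599 cells, exact binomial interval 31.1% to 35.5%). The Tim3-KD library of the same tissue and day gave 3.51% of 542 cells (19 cells, 2.12% to 5.42%). With the UMIs of the other sites put on the scale of the adjacent tissue, the share was 28.4% (27.1% to 29.6%) in micrometastasis Ctrl and 30.3% (29.1% to 31.6%) in micrometastasis Tim3-KD. It was 25.3% (24.1% to 26.6%) in macrometastasis Ctrl and 31.5% (30.3% to 32.8%) in macrometastasis Tim3-KD. Adjacent tissue Tim3-KD was thus the library with by far the fewest of these cells, and the other 5 lay within 25.3% to 33.2%. A share is set by every other cell type of the sort, and B-like cells were 233 of the 542 cells in that library and 295 of the 1803 in Ctrl.

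**Figure D2:**
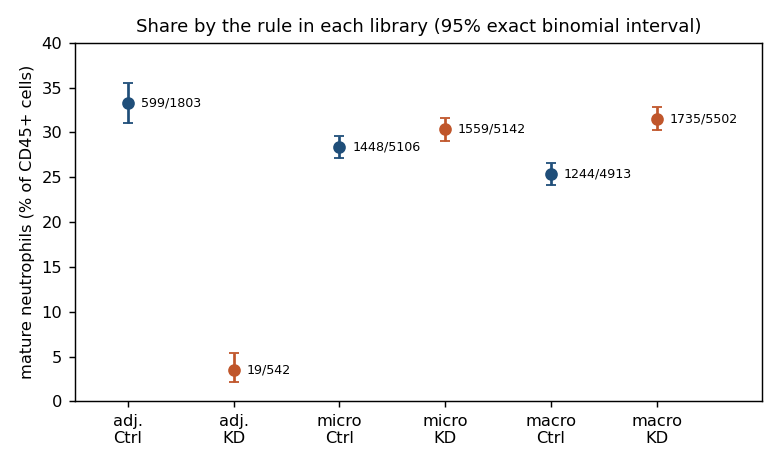
Share of CD45+ cells that the rule calls mature neutrophils (y axis, %) in each of the 6 libraries (x axis, blue Ctrl, orange Tim3-KD), with exact 95% binomial intervals and the counts of cells beside the points. Adjacent tissue Tim3-KD lies at 3.51% and the other libraries at 25.3% to 33.2%.

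The most abundant transcripts of the Ctrl members, among the genes of the matrix, were Wfdc21, a whey acidic protein family gene, at 5325 CPM, and Cstdc5, a stefin family gene, at 4139 CPM. Anxa1, which encodes the pro-resolving protein annexin A1, followed at 3190 CPM, then Ifitm6 at 2864 CPM and Il1b at 2809 CPM. The highest ratios over the other cells of the library, with 10 CPM added to both sides, belonged to Acod1 (16.9-fold), Steap4 (16.6-fold), Cstdc4 (15.8-fold), the joint feature of Csta2 and Cstdc4 (14.3-fold), Il1b (13.2-fold) and Cxcr2 (13.05-fold). Acod1 encodes the enzyme that makes itaconate. Stefin A genes are near-identical copies, and reads that several of them share are kept under joint names, so the split between them is uncertain. Of 297 listed genes 224 were in the matrix, and 79 of these had 100 CPM or more in the Ctrl members. S100a8, S100a9, Retnlg, Trem1, Camp, Ngp, Lcn2 and Cxcr4 were not analysed here.

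Receptors for growth factors and cytokines were led by Il1r2 next to Csf3r. Il1r2, the decoy receptor of IL-1, was at 1427 CPM in the Ctrl members (1396 to 1459) and at 163.9 CPM in the other cells. It was at 2637 CPM in adjacent Tim3-KD, at 1520 and 1311 CPM in micrometastasis (Ctrl and Tim3-KD) and at 2215 and 1830 CPM in macrometastasis. Every library thus had Il1r2 within 1311 to 2637 CPM. Il1rn, the secreted IL-1 receptor antagonist, had 142.6 CPM, Tnfrsf1b, a TNF receptor, 105.2 CPM and Il1rap, the IL-1 co-receptor, 80.8 CPM in the Ctrl members.

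Among receptors for chemotaxis, Ccrl2, which binds chemerin, had 1471 CPM in the Ctrl members, Ccr1 607 CPM and the complement receptor C5ar1 522 CPM. Fpr1, the formyl peptide receptor, had 159.3 CPM. Ccr1 was at 1719 CPM in adjacent Tim3-KD, at 631 and 466 CPM in micrometastasis Ctrl and Tim3-KD and at 853 and 838 CPM in macrometastasis. Its level in Tim3-KD of adjacent tissue was thus the highest of the 6.

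Pattern recognition receptors were led by Clec4e (Mincle) at 1694 CPM and by the lipopolysaccharide co-receptor Cd14 at 1605 CPM in the Ctrl members. Clec7a, the beta-glucan receptor, had 708 CPM, Clec4d 531 CPM, the inflammasome sensor Nlrp3 199.4 CPM and Tlr2 199.2 CPM. Clec4e varied little over the libraries, with 1903 CPM in adjacent Tim3-KD, 1423 and 1330 CPM in micrometastasis and 1672 and 1602 CPM in macrometastasis. Cd14 varied more, from 840 CPM in adjacent Tim3-KD over 1605 in adjacent Ctrl to 3160 in macrometastasis Ctrl.

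Il1b was the leading cytokine. It had 2809 CPM in the Ctrl members (2764 to 2854), 3929 CPM without the deep cells, and 202.8 CPM in the other cells of the library. It reached 9573 CPM (8986 to 10190) in the 19 Tim3-KD members, and 5439 and 2047 CPM in micrometastasis Ctrl and Tim3-KD. The matrix of macrometastasis does not hold Il1b. The next cytokine genes in the Ctrl members were the chemokine gene Ccl6 at 507 CPM, Prok2, which encodes Bv8, at 369.5 CPM, the macrophage growth factor Csf1 at 321 CPM and Ccl3 at 271 CPM. Tnf stood at 110 CPM and Ptgs2, the inducible prostaglandin synthase, at 82.3 CPM.

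Granule genes were uneven. Pglyrp1, a peptidoglycan binding protein of secondary granules, had 1926 CPM in the Ctrl members, Ly6g, the surface antigen of the mouse neutrophil, 754 CPM, Mmp9 (gelatinase B) 673 CPM, Mmp8 (neutrophil collagenase) 658 CPM and Cd177 444 CPM. Without the deep cells Ly6g had 503.5 CPM, Cd177 259.8 CPM and Ltf 198.7 CPM in place of 1907, while Mmp8 and Mmp9 stayed at 645 and 668 CPM. The azurophil genes Prtn3, Mpo, Ctsg and Elane had 203.8, 82.3, 69.3 and 56.3 CPM, and 43.9, 12.4, 18.3 and 18.8 CPM without the deep cells. B-like cells of the library, which should lack these genes, held Prtn3 in 12.2% of cells thinned to 1000 UMIs against 5.84% of the members, and Elane in 4.41% against 2.17%.

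The 29 interferon-stimulated genes of the matrix summed to 3583 CPM in the Ctrl members, 4516 CPM without the deep cells, and 890.9 CPM in the other cells of the library. Isg15, a ubiquitin-like modifier, was at 772 CPM in adjacent Ctrl and at 1121 CPM in adjacent Tim3-KD. It was at 579 and 452 CPM in micrometastasis Ctrl and Tim3-KD and at 266 and 517 CPM in macrometastasis. Slfn1 had 541 CPM, the antiviral gene Rsad2 198.3 CPM, the transcription factor Irf7 180 CPM and the guanylate-binding protein Gbp2 162 CPM in the adjacent Ctrl members.

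**Figure D3:**
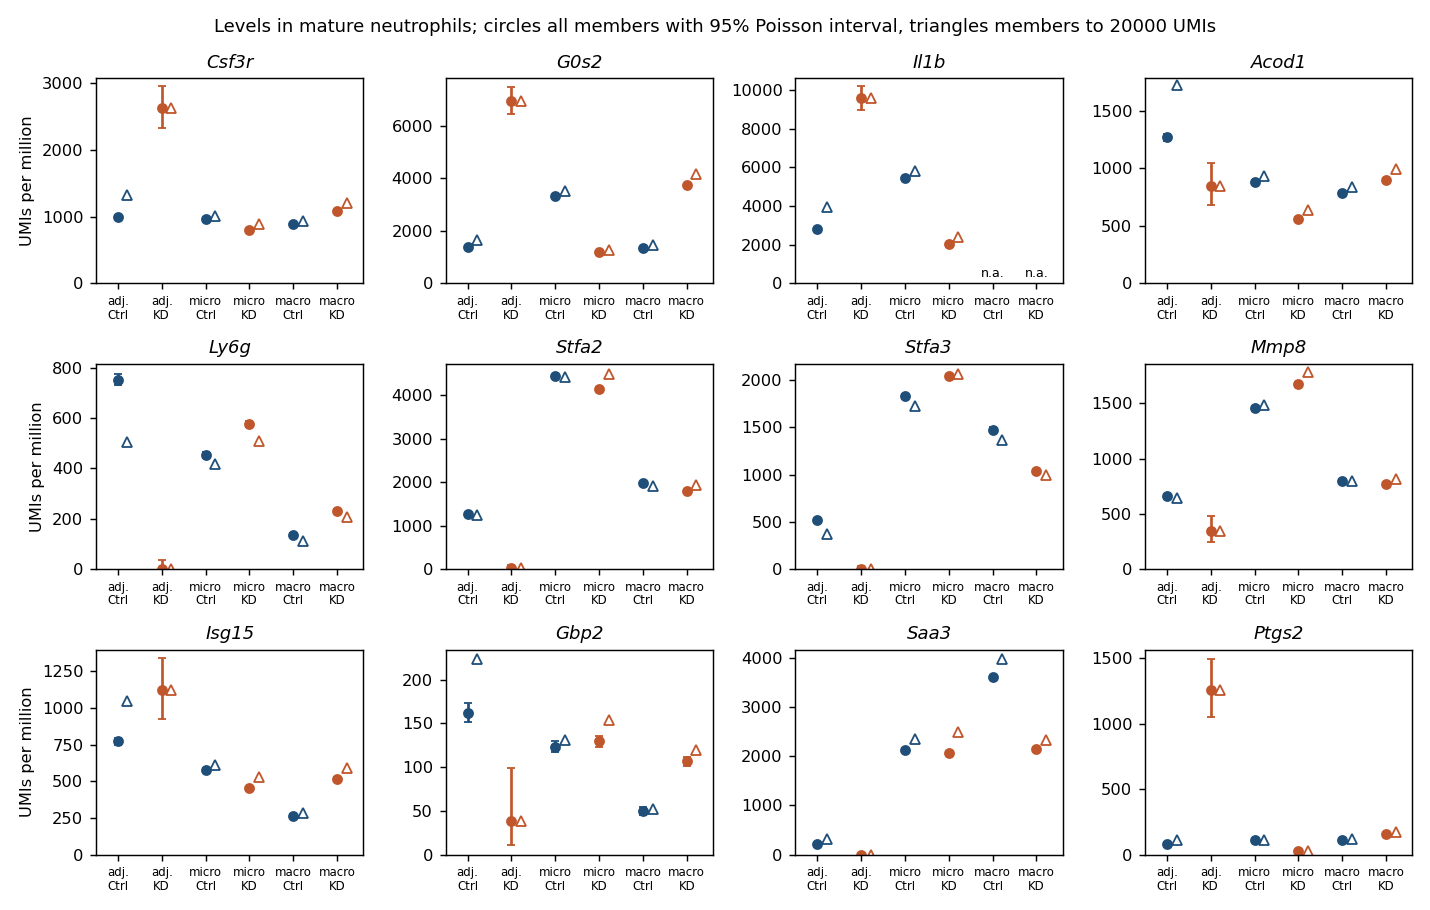
Level of 12 genes (y axis, CPM) in the mature neutrophils of each library (x axis, blue Ctrl, orange Tim3-KD); circles are all members with exact 95% Poisson intervals and triangles the members up to 20000 UMIs. Adjacent tissue Tim3-KD has the highest Il1b (9573) and Ptgs2 (1256) and no UMI of Ly6g or Stfa3, and the stefin genes are highest in micrometastasis; n.a. means that the matrix does not hold the gene.

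The members of the Ctrl library were not uniform. Over 1236 genes the median variance over mean of thinned UMIs was 1.07, where random sampling of molecules gives a ratio near 1, and 59 genes passed 2. The highest were Saa3, an acute phase gene, at 12.8, Apoe at 9.81, the Kupffer cell gene Cd5l at 9.67 and Cstdc5 at 9.30. Saa3 was found in 54 of the 599 cells with up to 201 UMIs in a cell, and Cd5l in 1.00% of cells. Ltf, Il1b, Ccl4, Cstdc4, Stfa2 and Ccrl2 also stood among the 15 genes of highest ratio. A UMI of Stfa2 was found in 283, of Stfa2l1 in 473 and of Stfa3 in 167 of the 599 cells.

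To follow this variation, the 561 Ctrl members up to 20000 UMIs were ranked by their share of UMIs in 10 secondary and tertiary granule genes and divided into 3 sets of 187 cells. Median granule levels were 1017, 2337 and 5288 CPM in the low, middle and high set, and the median depths were 3978, 4764 and 9534 UMIs. Of 102 listed genes with at least 100 UMIs that were used neither for this ranking nor for the rule, 65 were at least 2-fold lower and 8 at least 2-fold higher in the high set than in the low set. Cytokine and chemokine genes summed to 10170, 9134 and 3710 CPM in the 3 sets. Immediate early and survival genes summed to 14330, 11120 and 5119 CPM, pattern recognition receptors to 10670, 9965 and 5736 CPM, and interferon-stimulated genes to 6728, 5601 and 2932 CPM. At least 2-fold lower in the high set were 6 of 11 cytokine genes, 16 of 18 immediate early genes, 6 of 11 pattern recognition receptors and 13 of 18 interferon-stimulated genes. The cytokine and receptor counts were no higher a share than the 65 of 102 over all listed genes, and the interferon-stimulated count was close to it, so these 3 counts are no result about their lists. The stefin A cluster had 3 of 5 genes higher and none lower.

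Single genes differed over the 3 sets as well. Ccrl2 had 4399 CPM in the low set, 2672 in the middle set and 619 in the high set. Il1b had 6420, 5990 and 1685 CPM, and Csf1 905, 584.5 and 145.2 CPM. The stress-induced transcription factor Atf3 had 879, 642 and 125.7 CPM. Cd274, the gene of PD-L1, had 168.9, 110.7 and 33.3 CPM. The other way round, Prok2 had 60.2, 247.5 and 629.9 CPM, Ifitm6 223, 564 and 3670 CPM and Wfdc21 1842, 3604 and 6785 CPM. Stefin genes did not follow 1 direction: Stfa3 was 5.20-fold and Stfa2 2.91-fold higher in the high set, while Stfa2l1 had 2132, 2790 and 1862 CPM.

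Depth moved with this ranking. Over all 599 Ctrl members the granule share and the total UMIs had a Spearman rho of 0.69, and the granule share and the cytokine genes one of -0.58. After thinning every cell to 1000 UMIs the latter was -0.45, and that with immediate early genes went from -0.65 to -0.49. These are descriptions across cells of 1 library, which share its depth and its free RNA. Markers of other cell types also moved with the ranking. Kupffer cell markers summed to 837 CPM in the low set and 6.86 CPM in the high set, while Cd3d of T cells had 21.3 CPM in the low set and 80.2 CPM in the high set. Members with 2 or more UMIs of the defining markers of another class were 9, 7 and 36 of the 187 cells in the low, middle and high set, and their part in the result was not tested.

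**Figure D4:**
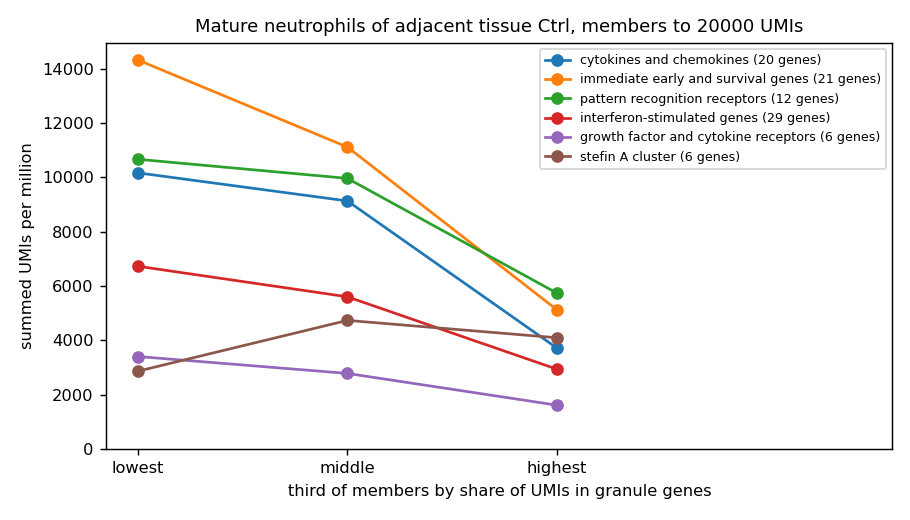
Summed level of 6 gene lists (y axis, CPM) in the Ctrl members up to 20000 UMIs, divided into 3 equal sets by their share of UMIs in granule genes (x axis, lowest to highest). Cytokine genes go from 10170 to 3710 and immediate early genes from 14330 to 5119, while the stefin A cluster does not go down.

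The comparison with micrometastasis Ctrl asks how these neutrophils differ between adjacent tissue and lesion of the same tumor line and day, with 599 cells against 1448. Of 1402 genes that both matrices hold and that had at least 100 UMIs in all, 63 (4.49%) were at least 2-fold higher and 52 (3.71%) at least 2-fold lower in micrometastasis. The median log2 ratio was 0.08. This and the next comparisons share the adjacent tissue Ctrl members.

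The stefin A cluster, a family of cysteine protease inhibitors, had 5 of its 6 genes at least 2-fold higher in micrometastasis, none lower and a median log2 ratio of 1.53. Stfa2 had 1258 CPM in adjacent tissue and 4427 CPM in micrometastasis, a ratio of 3.52 (3.43 to 3.61). Stfa3 had 515 against 1830 CPM (3.56-fold) and Stfa2l1 1826 against 4279 CPM (2.34-fold), which came to a log2 ratio of 1.00 without the deep cells and then missed the 2-fold limit. In micrometastasis Tim3-KD the same genes had 4139, 2042 and 3490 CPM, so both micrometastasis libraries lay above both adjacent ones.

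The collagenase gene Mmp8 was also higher, with 1455 against 658 CPM (2.21-fold), and so was G0s2 with 3323 against 1376 CPM (2.42-fold). Among 18 cytokine genes 3 were at least 2-fold higher and none lower. Cxcl3 had 113 against 34.6 CPM (3.26-fold) and Ccl4 358 against 167 CPM (2.14-fold). Without the deep cells the log2 ratio of Ccl4 was 0.83, which missed the limit and left 2 of the 18 higher. Reads that Cxcl2 and Cxcl3 share are kept as a joint feature, at 177 CPM in micrometastasis against 226.2 CPM in adjacent tissue. The part of this split in the Cxcl3 ratio was not tested. Il1b was 1.94-fold higher and did not reach the limit. Of 25 interferon-stimulated genes 1 was higher and none lower, with a median log2 ratio of -0.08, and without the deep cells 1 was higher and 2 were lower, with a median of -0.44. None of the 9 pattern recognition receptors, the 6 growth factor and cytokine receptors or the 6 chemotaxis receptors passed 2-fold in either direction. Against 4.49% higher and 3.71% lower over all genes tested, the counts of the interferon-stimulated genes and of the receptors are no result about these lists.

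The genes with the highest ratios included Prnp, the prion protein gene, at 149.4 against 14.7 CPM (10.2-fold), and Saa3 at 2135 against 223 CPM (9.58-fold). Pik3ip1, an inhibitor of PI3K, was 9.08-fold, Dpep2, a dipeptidase, 8.85-fold, the fibronectin gene Fn1 8.95-fold, the extracellular matrix gene Ecm1 8.24-fold, Bcl2l15 6.61-fold, Coq8a 6.58-fold and Kit, the stem cell factor receptor, 6.25-fold higher. Fn1 was found in 37 of the 1448 micrometastasis members and in 10 adjacent members. It is also a monocyte marker, and of 8 such markers 2 were at least 2-fold higher and 1 lower. A joint feature of H2A histone genes, which rests on 4 UMIs in adjacent tissue, was 19.3-fold higher (7.40 to 71.9), and 10.01-fold without the deep cells. This feature also differed between libraries across cell types. It had 8.07 CPM in the other cells of adjacent Ctrl and 231.7 CPM in those of adjacent Tim3-KD. The members of micrometastasis Tim3-KD held no UMI of it, and the cause was not tested. For Bcl2l15 5 of the 25 adjacent Ctrl members with a UMI were at the highest deposited score of 10, where the recovered UMIs are a minimum, as were 2 of 54 for Prnp, 2 of 18 for Kit and 1 of 14 for Dpep2. No micrometastasis member was at this score for these 4 genes, so their ratios are upper values.

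The genes with the lowest ratios were mainly those of proliferation and of Kupffer cells, and they rested on few cells. Ube2c, a mitotic ubiquitin-conjugating enzyme gene, was 11.1-fold, Ccnb2, a mitotic cyclin, 9.70-fold and Cdkn3 8.98-fold lower in micrometastasis. In all, 8 of 9 proliferation genes and 6 of 6 Kupffer cell markers were at least 2-fold lower, and 3 and 5 of them without the deep cells. Without the members that hold markers of another class, Kupffer cells included, the log2 ratios of the Kupffer cell markers Clec4f, C1qa and C1qb turned from -2.42, -1.91 and -1.92 to 1.32, 0.95 and 2.00. Without the deep cells they kept their sign, at -1.29, -1.27 and -1.34. The filter on markers of another class removes members by Clec4f itself and by other Kupffer cell genes, so the turned values are no result about the members. Without the deep cells the log2 ratio of Ube2c was 0.28 in place of -3.46, that of Mki67 0.41 in place of -2.32, that of Ccnb2 -0.25 in place of -3.25 and that of Cdkn3 -0.74 in place of -3.14. Ltf was 5.29-fold lower with all members and had a log2 ratio of -0.50 without the deep cells.

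The comparison with macrometastasis Ctrl sets 599 cells at day 3 against 1244 at day 12, so the site and the day cannot be told apart. Of 1295 genes 339 (26.2%) were at least 2-fold higher and 76 (5.87%) at least 2-fold lower in macrometastasis. The trimmed mean log2 ratio was 0.56, so most genes stood higher, and relative to that shift 124 were higher and 169 lower.

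Interferon-stimulated genes were lower as a group, with 14 of 20 at least 2-fold lower in macrometastasis, none higher and a median log2 ratio of -1.31, against 0.56 over all genes tested. Relative to the shift 19 of the 20 were lower. Isg15 had 772 CPM in adjacent tissue and 266 CPM in macrometastasis, 2.90-fold lower. Igtp, an interferon-induced GTPase, was 3.92-fold lower at 51.1 against 13.04 CPM, Oasl2 3.66-fold, Gbp2 3.28-fold, Irf7 3.17-fold and Rsad2 2.18-fold lower. Without the deep cells 18 of the 20 were lower and 1 was higher. In macrometastasis Tim3-KD the levels of Isg15, Gbp2 and Rsad2 were 517, 106.5 and 135.9 CPM, all above those of macrometastasis Ctrl and below those of adjacent Ctrl.

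Markers and products of the mature cell differed from gene to gene. Steap4 was 2.79-fold lower in macrometastasis Ctrl, at 112.6 against 314.5 CPM, Prok2 3.90-fold lower at 94.8 against 369.5 CPM and Ly6g 5.53-fold lower at 136.3 against 754 CPM. Csf3r, Cxcr2 and G0s2 stayed within 2-fold, at 886, 513 and 1366 CPM. Azurophil granule genes were at least 2-fold lower for 5 of 6, with and without the deep cells. Elane was 50.6-fold lower with 11 UMIs in macrometastasis against 307, and 15.1-fold lower without the deep cells, with 10 against 71. Mpo was 47.9-fold lower with 17 UMIs against 449, and 7.68-fold lower with 13 against 47. In macrometastasis Tim3-KD Elane stood at 405 CPM and Mpo at 386 CPM over all members, above the 56.3 and 82.3 CPM of adjacent Ctrl. Without the deep cells they stood at 4.78 and 8.95 CPM there, below the 18.8 and 12.4 CPM of adjacent Ctrl, so the order of these libraries turned with the deep cells. All 7 proliferation genes were lower, 4 of them without the deep cells, and Mki67 then had a log2 ratio of 0.40.

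Among genes that were higher in macrometastasis, Mt1, a metallothionein, had 1447 against 44.0 CPM (32.9-fold), Bcl2l15 303.5 against 10.6 CPM (28.6-fold, an upper value because the adjacent level is a minimum) and Arrdc4, an arrestin domain gene, 265.7 against 13.6 CPM (19.6-fold). Prnp was 16.7-fold higher, also an upper value, because 2 of the 54 adjacent members with a UMI were at the highest score. Saa3 was 16.2-fold higher, at 3603 CPM. Hilpda, a lipid droplet protein induced by low oxygen, had 482 against 79.4 CPM (6.08-fold), and Jun 194.9 against 47.6 CPM (4.09-fold). Cxcl13 had 148 UMIs against 1, a ratio of 81.6 (14.4 to 3245), and 144 against 0 without the deep cells. The 148 UMIs came from only 10 of the 1244 macrometastasis members. Of the stefin A cluster 1 of 6 genes passed 2-fold, Stfa3 at 2.86-fold, and none did relative to the shift.

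The comparison of Tim3-KD with Ctrl in adjacent tissue rests on 19 cells against 599. A gene with 100 UMIs over both groups and no difference would have 1.86 UMIs in the Tim3-KD members. Of 1280 genes 468 (36.6%) were at least 2-fold higher and 179 (14%) at least 2-fold lower in Tim3-KD, and the interval left out 1 for 343 and 56 of them. The trimmed mean log2 ratio was 0.63, and relative to it 217 genes were higher and 298 lower. Genes in the matrix took 25.7% of the UMIs of the Tim3-KD members and 15.6% of those of the Ctrl members.

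Immediate early and survival genes were higher in Tim3-KD for 15 of 19 and lower for 1, with a median log2 ratio of 2.02, against 0.65 over all genes tested. Relative to the shift 13 were higher. Junb, an AP-1 subunit, had 7738 CPM in the Tim3-KD members and 929 CPM in the Ctrl members (8.33-fold), and 14 to 78 UMIs in each of the 19 cells, with a median of 43 against 6 in Ctrl. Dusp1, a MAP kinase phosphatase, had 3999 against 535 CPM (7.48-fold), Ier2 1401 against 181.8 CPM (7.70-fold), Egr1 2444 against 453 CPM (5.39-fold) and Jun 744 against 47.6 CPM (15.6-fold). The Jun UMIs came from 8 of the 19 cells. B-like cells differed in the same direction, with Junb at 1382 CPM in Tim3-KD and 452 CPM in Ctrl and Jun at 946 against 192 CPM, and the part of a difference between the libraries in all cells was not tested.

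Of 14 cytokine and chemokine genes 10 were at least 2-fold higher in Tim3-KD and 2 lower, relative to the shift 6 and 3, and without the deep cells 7 and 2. Il1b was found in all 19 cells, with 19 to 83 UMIs and a median of 52, against a median of 20 and a range of 0 to 163 in the 599 Ctrl cells, which overlap them. Its level was 3.41-fold higher (3.19 to 3.64) and 1.14 on the log2 scale relative to the shift. Ptgs2 was found in 16 of 19 cells against 203 of 599, at 1256 against 82.3 CPM (15.3-fold, 12.5 to 18.6). G0s2 was 5.06-fold, Ccl6 3.69-fold, Ccrl2 3.30-fold and Ccr1 2.83-fold higher. Il1b, Ptgs2, G0s2, Ccrl2, Ccl6 and Ccr1 in Tim3-KD also lay above their levels in every other library whose matrix holds them.

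Most listed transcripts of secondary and tertiary granules and of the stefin A cluster were low in the 19 cells. Of 11 granule genes 7 were at least 2-fold lower and none higher, and of 6 stefin genes 5 were lower and none higher. Stefin family features outside these 6 differed. Cstdc5 had 985 CPM in Tim3-KD against 4139 CPM in Ctrl, and Cstdc4 1642 against 1917 CPM. The joint feature of Csta2 and Cstdc4 had 1024 against 846 CPM, and the part of the split of shared reads was not tested. Ly6g had no UMI in 19 cells, against 251 of 599 Ctrl cells with a UMI, and its level was at least 26.0-fold lower when the Tim3-KD members are set to 3 UMIs. Stfa3 (at least 17.8-fold lower), Prok2 (at least 12.8-fold) and Serpinb1a, an inhibitor of neutrophil serine proteases (at least 7.97-fold), also had no UMI. Stfa2 had 3 UMIs against 6862, a ratio of 0.023 (0.00475 to 0.0674). Ifitm6 was 12.9-fold, Wfdc21 8.61-fold, Cd177 6.56-fold and Anxa1 4.23-fold lower. Mmp9, by contrast, had 763 against 673 CPM (ratio 1.13, 0.895 to 1.42).

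The deep cells bear on part of these ratios. Ltf had no UMI in Tim3-KD against 10404 in Ctrl, of which 92.8% were in the deep cells, and the azurophil genes Elane, Mpo and Prtn3 were also at 0. Without these cells Ltf was at least 6.86-fold and Prtn3 at least 1.52-fold lower, Serpinb1a at least 3.21-fold in place of 7.97-fold and Cd177 3.84-fold in place of 6.56-fold. Elane and Mpo were then at 18.8 and 12.4 CPM in Ctrl, under the 28.98 CPM that a count of 0 allows in Tim3-KD, so no difference was detectable at this depth. Without the deep cells 6 of 11 granule genes and 5 of 6 stefin genes were still at least 2-fold lower, and 14 of 19 immediate early genes at least 2-fold higher. Ly6g was then at 503.5 CPM and Stfa3 at 375 CPM in Ctrl, both above that limit.

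Of 19 interferon-stimulated genes 6 were at least 2-fold higher and 3 lower in Tim3-KD, and 4 and 4 relative to the shift. These shares were near the 36.6% higher and 14% lower over all genes tested, so the counts are no result about the list. Rsad2 was 3.85-fold and Slfn5 3.17-fold higher, while Gbp2 had 4 UMIs against 884 (ratio 0.238, 0.0648 to 0.613) and Zbp1, a nucleic acid sensor, none against 593. The Isg15 level was 1.45-fold higher (1.20 to 1.74), although the median cell had 1 UMI in Tim3-KD and 4 in Ctrl. Several of the highest ratios belonged to genes of other cells: Igkc, an immunoglobulin gene of B cells, had 37 UMIs against 69 (28.3-fold), Ighm 35 against 109 (16.9-fold) and the macrophage gene Apoe 182 against 935 (10.3-fold). Clec4f, a Kupffer cell gene, was found in 5 of the 19 cells with up to 19 UMIs, and it had 1572 CPM in the other cells of this library. Its ratio to the Ctrl members was 3.61, and 7.56 without the deep cells. The part of free RNA or of cell pairs in these values was not tested.

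**Figure D5:**
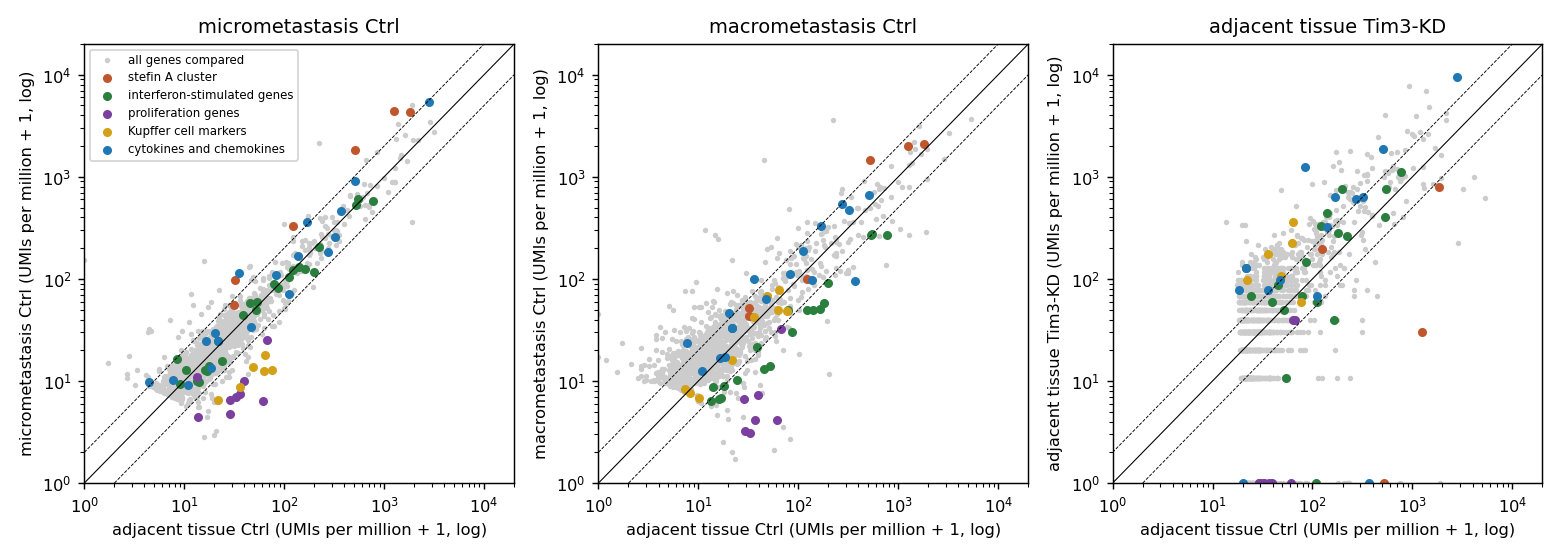
Level of each gene compared (CPM + 1, log axes) in mature neutrophils of adjacent tissue Ctrl (x axis) and of micrometastasis Ctrl, macrometastasis Ctrl or adjacent tissue Tim3-KD (y axes), with solid lines at equality, dashed lines at 2-fold and 5 gene lists in color. Stefin genes lie above the upper line in micrometastasis for 5 of 6, interferon-stimulated genes below the lower line in macrometastasis for 14 of 20, and the horizontal rows of points in the right panel are the small UMI numbers of the 19 Tim3-KD cells.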

How the data were processed

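Sorted CD45+ liver cells were profiled in 6 libraries, 1 per group. Reads were trimmed with Trim Galore 0.4.3 and mapped to GRCm38 with STAR 2.7.7a (submitters' processing notes), UMIs were counted over exons and introns, and barcodes called doublets by scrublet were removed before deposit. No further doublet removal was made here. The deposited values are scaled scores: per the values, the authors normalized each cell to 10000 UMIs, took logs, regressed out total UMIs, scaled each of 3 matrices separately and capped at 10. The fitted line of undetected values gave back UMIs, of which 99.9997%, 99.9999% and 99.9973% in the adjacent, micrometastasis and macrometastasis matrices were within 0.05 of a whole number. Checked on simulated data of 4481 genes in 2345 cells, the inversion returned 100% of UMIs. A score at 10 gives only the smallest number of UMIs, in 0.144%, 0.160% and 0.153% of detected values. The matrices hold 4486, 2669 and 2643 genes.

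The rule was applied to the deposited scores, and for other sites to scores rebuilt on the adjacent tissue scale. Ratios are of summed CPM over genes with at least 100 UMIs in both groups together, with conditional binomial intervals at 95%, and a called gene is at least 2-fold. For log2 ratios 0.5 was added to each sum. Analyses used Python 3.11.15, numpy 2.4.6, scipy 1.17.1 and pandas 2.3.3. B-like cells hold UMIs of all 3 B markers. Gene names and coordinates follow the files and GENCODE for GRCm38.

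The members and gene lists were chosen with earlier results of these data known. Named genes were those of the lists, the 10 highest and 10 lowest ratios of each comparison, and the 15 genes of highest level, ratio over other cells and variance. Alternatives changed the cut-offs, the scaling, the UMI minimum and the members. Leaving out members above 20000 UMIs was chosen after seeing the data.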

Additional observations from a re-analysis of the deposited data

Results flagged for a closer look

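The difference in the share of mature neutrophils between Tim3-KD and Ctrl did not have the same sign at the 3 sites. It was -29.72 percentage points in adjacent tissue (3.51% against 33.2%), 1.96 points in micrometastasis (30.3% against 28.4%) and 6.213 points in macrometastasis (31.5% against 25.3%). With 1 library per group the difference between the sites was not tested. The adjacent tissue Tim3-KD library held 542 cells, against 1803 to 5502 in the others, and the part of its size in the value was not tested.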

How the results depend on the processing

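The shares were recomputed under each alternative that changes the members, and the ratios and counts of genes past 2-fold under those that change the mature cut-off to 0.5, the members, the averaging, the scaling or the UMI minimum. The share in adjacent tissue Ctrl moved from 33.2% to 29.34% and 36.66% with the precursor cut-off at 0.25 and 1, and to 28.51% without the members that hold markers of another class, which took the share in Tim3-KD from 3.51% to 2.03%. At a minimum of 30 UMIs the counts were 105 higher and 130 lower in micrometastasis, 514 higher in macrometastasis, and 1161 higher and 428 lower in Tim3-KD. With trimmed mean scaling they were 124 higher and 169 lower in macrometastasis, and 217 and 298 in Tim3-KD. Without members holding markers of another class 247 genes were higher in Tim3-KD, and without members above 20000 UMIs 272 were, from 840 and 928 genes tested in place of 1280. In micrometastasis the log2 ratios of Clec4f, C1qa and C1qb turned to 1.32, 0.95 and 2.00 without members of other markers, and those of Ube2c, Mki67 and Siglech to 0.28, 0.41 and 1.00 without members above 20000 UMIs. In macrometastasis those of Mki67, Tubb5 and Siglech turned to 0.40, 0.51 and 0.46 without these members. Leaving out members of other markers dropped 85 of the 599 adjacent Ctrl members, and leaving out those above 20000 UMIs dropped 38. These included the cells that hold most of the UMIs of these genes. Genes left with 3 UMIs or fewer in a group got no value, 14 at most in a comparison.

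No paired analysis was possible because each group has 1 library. The 19 Tim3-KD cells limit every ratio of that comparison, the spread between mice was not measured, and genes outside the matrices were not analysed here.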

Other observations

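A joint feature of Ly6c1 and Ly6c2 and the gene Erdr1 differed between libraries across cell types. The joint feature had no UMI in the 599 members or in the other cells of adjacent tissue Ctrl, and none in the members of micrometastasis Ctrl. It had 57.96 CPM in the adjacent Tim3-KD members, 124.9 CPM in micrometastasis Tim3-KD, 44.5 CPM in macrometastasis Ctrl and 65.9 CPM in macrometastasis Tim3-KD. Ly6c2 counted on its own had 194.5 CPM in the adjacent Ctrl members. Erdr1 had no UMI in the adjacent Ctrl members and 0.0795 CPM in the other cells of that library, against 48.7 CPM in the other cells of adjacent Tim3-KD, and 16.2 CPM in macrometastasis Ctrl members against 0.071 CPM in macrometastasis Tim3-KD. The cause was not tested.

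Several genes that were not part of the rule stood higher in the Ctrl members than in the other cells of the library. Msrb1, a methionine sulfoxide reductase gene, had 2170 CPM against 541.6 CPM. After thinning to 1000 UMIs, Clec4e was found in 77.5% of the 599 members and 1.36% of the 295 B-like cells, whose median depth before thinning was 5390 UMIs against 5558 in the members, and Il1r2 in 75.3% against 0.678%. Asprv1, an aspartic protease gene, had 1312 CPM and was found in 52.3% of thinned members against 0.678% of B-like cells, and Hcar2, a receptor for hydroxybutyrate and niacin, had 283.2 CPM and 27.9% against 0.339%. Igfbp6, an insulin-like growth factor binding protein gene, had 236.4 CPM against 12.5 CPM in the other cells of the library. Members were chosen by expression in the same cells, so these values are descriptions.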
